A study of Homo sapiens with 4 samples.

Results

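Heat shock proteins and chaperonins were followed in Reh-6-MPR cells, a human B-cell acute lymphoblastic leukemia line selected for resistance to 6-mercaptopurine (6-MP), a purine analogue used in maintenance chemotherapy. The 48 genes were chosen by symbol. They comprised the HSP90, HSP70 and HSP110 families with their J-domain partners and cochaperones, the subunits of the TRiC chaperonin, the lectins and disulfide isomerases of the endoplasmic reticulum (ER), and 3 transcription factors that control chaperone genes. Of these, 46 were found among 29833 genes, and 44 had a mean of at least 1 FPKM (fragments scaled to gene length and library depth) over the libraries, as did 12750 genes in all. HSPA1A and HSPA1B were not analysed here. By the compartment of the protein, 26 of the genes found were cytosolic, 5 mitochondrial and 12 of the ER.

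The study asked whether histidine restores the response to 6-MP. Every library came from the same resistant line, which was raised on increasing 6-MP and, by the study's methods, grown without the drug for some time before experiments. None shows the sensitive parent. Cells received PBS as vehicle (Blank), histidine at 4 mM (His), 6-MP at 1 μg/mL (6-MP), or both agents together (His+6-MP), each for 48 h, and 1 library was sequenced per treatment. No difference below therefore has a replicate check. Intervals are exact 95% Clopper-Pearson intervals on the reads behind each FPKM, cover counting error only, and compare libraries rather than treatments. Differences were taken between values of log2(FPKM + 1), so that those of weakly expressed genes come out smaller than their ratios. A gene was called where such a difference was at least 1 in size.

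Chaperones bind unfolded segments of proteins and release them for folding, usually in cycles of ATP hydrolysis. Each compartment has its own set: HSP70 and HSP90 with their J-domain and TPR-domain partners and the TRiC ring in the cytosol, HSP60 with HSP10 and mitochondrial HSP70 in the matrix, and BiP, GRP94 and the calnexin cycle in the ER. The sets answer to different regulators. HSF1 binds heat shock elements, repeated GAA units in alternating orientation, when misfolded proteins occupy the cytosolic chaperones, whereas ATF6 and XBP1 act on ER stress elements during the unfolded protein response.

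The letters of both elements were looked for in RefSeq promoter windows (GRCh38.p14, 250 bases before to 50 after each start site, 300 in all), which matched 40 of the 46 genes with 60 windows. The ER stress element, searched as CCAAT, then 9 bases of any kind, then CCACG, on either strand, was in 27 of 35116 windows (0.0769%). Among the chaperone genes it was in the windows of 5 of the 11 ER genes matched (HSPA5, HSP90B1, CALR, CANX and PDIA6) and of XBP1, and in none of the 22 cytosolic or 5 mitochondrial genes. The sequences below are shown because they hold all of these elements. Each runs 5′ to 3′ on the strand of the gene, ends before the start site of its window, and has the whole element in capitals; the element of CALR and the second of HSP90B1 lie in the opposite orientation. The stretch of CANX stops at the end of the element, which overlaps a second start site.
HSPA5 promoter (chr9:125241361-125241439, minus strand): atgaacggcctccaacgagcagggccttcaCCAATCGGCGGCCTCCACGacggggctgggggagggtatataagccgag
HSP90B1 promoter (chr12:103930186-103930369, plus strand): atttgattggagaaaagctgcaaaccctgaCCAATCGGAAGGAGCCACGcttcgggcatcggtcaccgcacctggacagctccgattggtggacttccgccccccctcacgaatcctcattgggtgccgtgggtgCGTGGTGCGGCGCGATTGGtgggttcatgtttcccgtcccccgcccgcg
CALR promoter (chr19:12938359-12938432, plus strand): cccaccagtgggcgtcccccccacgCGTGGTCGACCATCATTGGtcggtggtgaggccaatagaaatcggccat
PDIA6 promoter (chr2:10812823-10812901, minus strand): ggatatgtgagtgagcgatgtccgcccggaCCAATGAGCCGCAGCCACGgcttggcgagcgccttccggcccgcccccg
CANX promoter (chr5:179698748-179698796, plus strand): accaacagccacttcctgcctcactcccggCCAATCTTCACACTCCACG
XBP1 promoter (chr22:28800573-28800651, minus strand): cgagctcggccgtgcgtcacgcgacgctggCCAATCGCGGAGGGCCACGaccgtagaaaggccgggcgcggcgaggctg

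Heat shock elements were spread differently. A pair of units, GAA and TTC separated by 2 bases in either order, is short and was in 13.5% of all windows. It was in 14 of 34 windows of cytosolic genes (13 of 22 genes), 2 of 6 of mitochondrial genes and 1 of 16 of ER genes, the last being a further window of CANX. An element of 3 units in alternation, which contains overlapping pairs, was in 0.490% of all windows. It was found for 5 of the 22 cytosolic genes, DNAJA1, DNAJB6, HSP90AA1, HSP90AB1 and HSPA8, for HSPD1 among the 5 mitochondrial genes, and for no ER gene. HSP90AA1, HSP90AB1, HSPA8 and HSPD1 are shown next, since HSPA8 differed little with both agents while the others were lower. The capitals mark all pairs of units.
HSP90AA1 promoter (chr14:102087075-102087162, minus strand): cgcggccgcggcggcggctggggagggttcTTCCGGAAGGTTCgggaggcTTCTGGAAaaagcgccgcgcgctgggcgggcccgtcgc
HSP90AB1 promoter (chr6:44247748-44247873, plus strand): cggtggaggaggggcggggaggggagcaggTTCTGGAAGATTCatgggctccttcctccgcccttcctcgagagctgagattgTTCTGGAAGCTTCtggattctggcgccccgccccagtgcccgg
HSPA8 promoter (chr11:123062149-123062386, minus strand): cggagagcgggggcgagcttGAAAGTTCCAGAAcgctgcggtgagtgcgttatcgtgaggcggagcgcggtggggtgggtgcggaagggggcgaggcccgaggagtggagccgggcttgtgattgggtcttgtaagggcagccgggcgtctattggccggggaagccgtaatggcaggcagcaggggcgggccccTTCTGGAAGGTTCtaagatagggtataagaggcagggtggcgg
HSPD1 promoter (chr2:197500038-197500090, minus strand): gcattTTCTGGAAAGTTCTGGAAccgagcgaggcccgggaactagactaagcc
A match of letters is a description and not evidence of binding, and a window without a match says only that these letters were not in it.

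Depth and identity of the libraries were as follows. The FPKM steps gave whole reads for all 46 genes, with library totals of 12899122 to 15486376 reads, and the combined library was the lowest. It nevertheless had the most genes above 0, 25443 against 23635 to 23978. Of the B-cell precursor markers found, 9 of 9 were at 1 FPKM or more in all 4 libraries, led by DNTT. Of the markers of monocytes and granulocytes, T cells, and erythroid and stromal cells, 11 were found. Only MPO and TRAC among these were at 1 FPKM or more in every library, and their lists summed to 43.8 and 32.3 FPKM in the combined library against 27.2 to 31.3 and 11.6 to 12.3 in the others. The part of these transcripts in the results was not tested.

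With both agents together, most chaperone transcripts were lower than with vehicle. Of 44 genes, 34 were lower and 10 higher, with a median log2 difference of -0.39 where the median of all 12750 genes was 0.13. The counting interval of the read ratio lay below 0 for 31 genes, above 0 for 9 and held 0 for 4. No share over all genes was computed for these intervals. At high read counts they leave out 0 even for small differences, such as 0.09 for HSPA8. A difference of -0.5 or less was seen for 18 genes (7.37% of all genes) and one of 0.5 or more for 1 gene (19.7% of all genes). The combined library was below each of the other 3 in 32 of the 44 genes (28.8% of all genes) and above each of them in 10 (53.8% of all genes). In these bulk libraries a smaller share of some cells and less RNA per cell cannot be told apart. The other 3 libraries spanned a median of 0.10 on the log2 scale. Summed over the 46 genes, chaperone transcripts made up 1.71% of all FPKM in Blank, 1.67% in His, 1.72% in 6-MP and 1.29% in His+6-MP.

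Abundant genes as a whole were lower in the combined library, and many chaperones are abundant. Among the 746 genes with a mean of at least 50 FPKM, the median log2 difference to vehicle was -0.19 and 20.9% were at -0.5 or less. Of the 21 chaperone genes at that level, 12 were at -0.5 or less, with a median of -0.53. Between 10 and 50 FPKM, 5 of 14 chaperone genes were at -0.5 or less, where 8.22% of all genes were. Below 10 FPKM 1 of 9 was, where 5.71% of all genes were. The median of these 9 was 0.08, against 0.22 for all genes from 1 to 10 FPKM. Differences of -0.5 or less were thus found mostly among the abundant chaperone genes. The chaperone median was below that of all genes in each range.

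**Figure D1:**
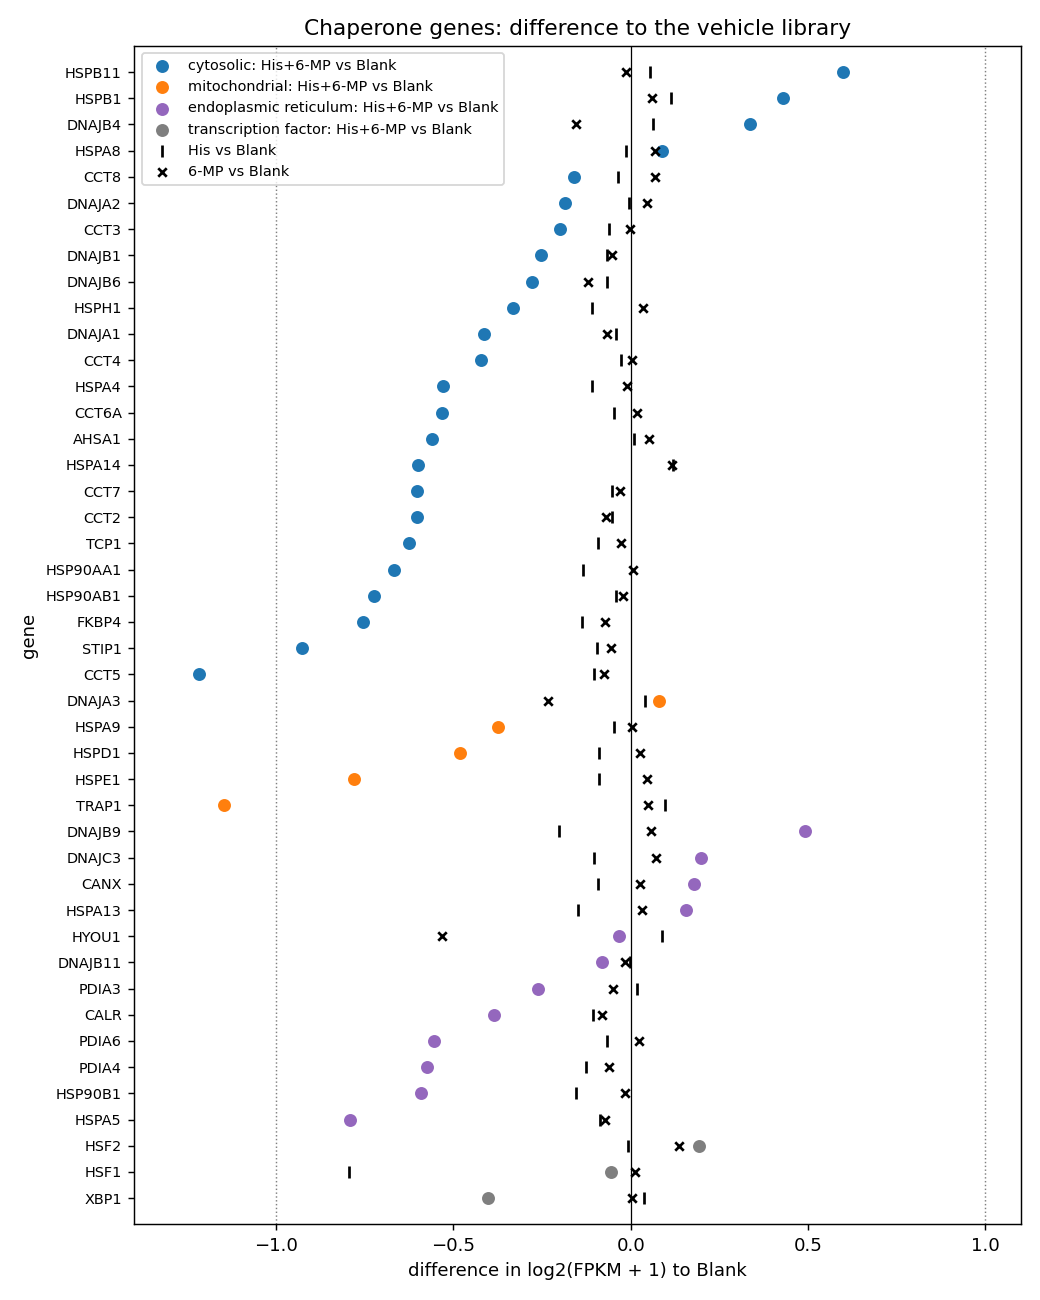
The horizontal axis gives the difference in log2(FPKM + 1) to the vehicle library for the 44 genes with a mean of at least 1 FPKM, ordered within compartments. Filled points are His+6-MP, vertical ticks His, crosses 6-MP, and dotted lines mark a difference of 1 in size. Filled points run from -1.22 for CCT5 to 0.60 for HSPB11, while ticks and crosses lie near 0 except for HSF1 with histidine and HYOU1 with 6-MP.

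Of these 44 genes, only CCT5 and TRAP1 passed a difference of 1 between the combined library and vehicle (6.53% of all genes passed). The same 2 genes passed against 6-MP alone (6.02%) and against histidine alone (5.55%). They were also the 2 genes that departed by 1 or more from additivity, the combined value minus both single agents plus vehicle on the log2 scale (6.76%). Neither single agent took any chaperone gene with a mean of at least 1 FPKM past that size, where 1.33% of all genes passed with histidine and 1.18% with 6-MP. In the log2 read ratio, without the added 1, HSF1 was at -1.53 with histidine. These contrasts share libraries and are not independent of each other. Against vehicle the medians over the 44 genes were -0.06 with histidine and 0.00080 with 6-MP, and those of the combination were -0.37 against 6-MP and -0.35 against histidine.

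In each compartment more genes were lower than higher in the combined library. Cytosolic genes had a median log2 difference of the combined library to vehicle of -0.47 over 24 genes, with 20 lower and 4 higher. Mitochondrial genes had a median of -0.48 over 5 genes, with 4 lower. ER genes had a median of -0.17 over 12 genes, with 8 lower and 4 higher. The gap of 0.30 between the ER and cytosolic medians shrank to 0.089 when only genes with a mean of at least 5 FPKM were kept, and the gap of 0.31 to the mitochondrial median shrank to 0.041. That filter leaves out HYOU1, DNAJB11, CANX and HSPE1, so the contrast between compartments rested on those genes. DNAJB11 and CANX fall under it with 663 and 764 reads in Blank, since the lengths behind their FPKM are 1.64 and 2.21 times the GENCODE 29 exonic lengths. Against 6-MP alone the class medians were -0.47, -0.51 and -0.14, and against histidine alone -0.41, -0.39 and -0.20, in the same order of compartments.

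Both cytosolic HSP90 genes and the cochaperones STIP1, FKBP4 and AHSA1 were lower with both agents. HSP90AB1, the constitutive cytosolic HSP90 (chr6:44246166-44253888, plus strand), had the highest level of any chaperone gene, at 914 FPKM in Blank, 888 in His, 901 in 6-MP and 553 in His+6-MP. The first 3 libraries lay together and the combined library below them, with a log2 difference to vehicle of -0.72 (21253 against 38991 reads, log2 read ratio interval -0.75 to -0.70). The inducible partner HSP90AA1 was at 374, 341, 376 and 235 FPKM in the same order, a difference of -0.67. The ratio of HSP90AB1 to HSP90AA1 stayed between 2.35 and 2.61 in the 4 libraries. The 2 genes thus kept nearly the same proportion.

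STIP1, which hands clients from HSP70 to HSP90, had the largest difference of these cochaperones. It was at 116 FPKM in Blank, 108 in His, 112 in 6-MP and 60.5 in His+6-MP (log2 difference to vehicle -0.93, read ratio interval -0.995 to -0.88). FKBP4, an immunophilin of steroid receptor complexes, was at 24.1, 21.8, 22.8 and 13.9 FPKM (-0.76). AHSA1, which stimulates the HSP90 ATPase, was at 62.2, 62.6, 64.5 and 41.8 FPKM (-0.56). In all 5 genes of the group the combined library was below the other 3 by over 0.5, and their sum was 904 FPKM against 1422 to 1490. This did not extend to every HSP90 cochaperone listed among the other pathway genes. Chosen after their values were seen, SUGT1 was at 0.46, UNC45A at 0.10, CDC37 at 0.03 and FKBP5 at -0.22 relative to vehicle.

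Among the cytosolic HSP70 and HSP110 genes, HSPA8 alone of the 4 tested was not lower, although the lower value of HSPA14 is uncertain, as given below. HSPA8, the constitutive cytosolic HSP70, was at 493 FPKM in Blank, 489 in His, 517 in 6-MP and 524 in His+6-MP. Its log2 difference of the combined library to vehicle was 0.09 (read ratio interval 0.067 to 0.11), and scaling by the median ratio turned it to -0.07. Either way HSPA8 did not share the lower level of HSP90AB1. Its FPKM was 0.540 of that of HSP90AB1 in Blank, 0.551 in His, 0.574 in 6-MP and 0.949 in His+6-MP. Relative to STIP1 it was 4.25-fold with vehicle and 8.67-fold with both. These ratios are within libraries and do not depend on how libraries are scaled.

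The HSP110 genes differed in direction. HSPA4 and HSPH1, exchange factors for HSP70, had log2 differences to vehicle of -0.53 and -0.33. HSPA4L, a further member of that family, was higher with both agents, by 2.52-fold in reads (log2 interval 0.26 to 2.51), from 11, 9, 12 and 25 reads in the 4 libraries. HSPA14, an HSP70 of the ribosome-associated complex, was at 15.4, 16.8, 16.8 and 9.82 FPKM, a difference of -0.60. A second gene of the same name in GENCODE 29 shares 460 exonic bases with it on the same strand and went the other way, at 12.9, 12.4, 11.5 and 15.6 FPKM. Their reads together were 100.02, 101, 96.9 and 98.7 RPM (reads scaled to library size), a log2 ratio of -0.02 (interval -0.13 to 0.09) between the combined library and vehicle. The lower value of HSPA14 therefore did not hold over the pair.

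BAG3, a nucleotide exchange factor and a well-known HSF1 target, stood apart from its family. It was at 0.10 FPKM in Blank (4 reads), 0.094 in His (4 reads), 1.12 in 6-MP (47 reads) and 2.55 in His+6-MP (90 reads). The libraries with 6-MP were the high ones, and their intervals did not overlap those of the libraries without it. The read ratio to vehicle was 11.0-fold with 6-MP (interval 4.01 to 41.9) and 25.0-fold with both (interval 9.42 to 93.6). The combined library was also above 6-MP alone, by 2.28-fold (interval 1.58 to 3.31). On the log2(FPKM + 1) scale these were differences of 0.94, 1.69 and 0.74, and BAG3 entered none of the main counts because its mean was under 1 FPKM.

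J-domain proteins, which deliver clients to HSP70 and stimulate its ATPase, mostly differed little. DNAJA1, DNAJA2, DNAJB1 and DNAJB6 were lower in the combined library than with vehicle, from -0.41 for DNAJA1 to -0.19 for DNAJA2. DNAJB6 has named pseudogenes that sum to 17.3 to 21.3 FPKM beside its own 9.45 to 11.7, so its share of the reads is uncertain. DNAJB4 was at 5.77, 6.07, 5.09 and 7.56 FPKM, with a log2 difference of 0.34 to vehicle and 0.49 to 6-MP alone.

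The small proteins named HSPB were the other cytosolic exceptions. HSPB1, the ATP-independent holdase HSP27, was at 37.0 FPKM in Blank, 40.1 in His, 38.6 in 6-MP and 50.1 in His+6-MP, a log2 difference of 0.43 to vehicle (read ratio interval 0.31 to 0.57). HSPB11 was at 14.5, 15.1, 14.3 and 22.4 FPKM, a difference of 0.60 (interval 0.48 to 0.78). HSPB11 encodes a subunit of the intraflagellar transport machinery and carries the heat shock name by history. In both genes the combined library lay above the other 3, and the direction to vehicle held under each scaling.

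All 8 subunits of TRiC, the double ring that folds actin and tubulin, were lower in the combined library than in each other library. Their median log2 difference to vehicle was -0.57, and their sum was 1028 FPKM in Blank, 987 in His, 1019 in 6-MP and 729 in His+6-MP. CCT5 (chr5:10249929-10266389, plus strand) was at 97.5 FPKM in Blank, 90.7 in His, 92.6 in 6-MP and 41.4 in His+6-MP. It had 7871, 7918, 8008 and 3007 reads, and its log2 read ratio to vehicle had an interval of -1.30 to -1.18. The log2 differences of the combined library were -1.22 to vehicle, -1.14 to 6-MP and -1.11 to histidine, and the departure from additivity was -1.04.

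The ring is built from 1 copy of each subunit per layer, but the transcripts did not keep their proportions. CCT5 made up 9.49% of TRiC FPKM in Blank, 9.18% in His, 9.09% in 6-MP and 5.67% in His+6-MP. CCT3 took 17.4%, 17.4%, 17.5% and 21.4%, and CCT8 took 10.6%, 10.8%, 11.2% and 13.4%. CCT3 and CCT8 were the least lowered, at -0.20 and -0.16 relative to vehicle. The remaining 5 subunits, TCP1, CCT2, CCT4, CCT6A and CCT7, ran from -0.62 for TCP1 to -0.42 for CCT4. An antisense gene overlaps 30.1% of the exonic bases of CCT5, but it was at 0.055 FPKM or less in every library.

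In the mitochondrial matrix the HSP90 paralog TRAP1 (chr16:3651639-3717553, minus strand) showed the largest difference. It was at 26.3 FPKM in Blank, 28.2 in His, 27.2 in 6-MP and 11.3 in His+6-MP (1949, 2261, 2164 and 756 reads). The combined library was alone in being low, with log2 differences of -1.15 to vehicle, -1.20 to 6-MP and -1.24 to histidine and a departure from additivity of -1.29. DNASE1 lies on the opposite strand and shares 29.3% of the exonic bases of TRAP1. It went from 4.17 FPKM with vehicle to 5.75 with both, opposite in direction to TRAP1.

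HSPD1 (HSP60) and HSPE1 (HSP10), the 2 parts of the matrix chaperonin, are encoded head to head. HSPD1 was at 90.5, 85.0, 92.3 and 64.6 FPKM, a log2 difference of the combined library to vehicle of -0.48. HSPE1 was at 3.64, 3.37, 3.79 and 1.70 FPKM, a difference of -0.78. Only 95, 95, 106 and 40 reads stood behind HSPE1, and its log2 read ratio to vehicle was -1.10 (interval -1.67 to -0.55). Its 8 named pseudogenes held more FPKM than the gene in each library. The level of HSPE1 is therefore uncertain.

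HSPA9, the matrix HSP70 known as mortalin, was at 60.2, 58.2, 60.4 and 46.3 FPKM (-0.37). DNAJA3, its J-domain partner, was at 6.45, 6.66, 5.34 and 6.87 FPKM. Here the 6-MP library was the low one, with a log2 difference of -0.23 to vehicle (read ratio interval -0.44 to -0.11). The combined library differed from vehicle by 0.08, which became -0.06 when scaled by the median ratio.

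The ER genes split. HSPA5, the HSP70 of the ER known as BiP (chr9:125234853-125241382, minus strand), was at 54.8 FPKM in Blank, 51.6 in His, 52.1 in 6-MP and 31.2 in His+6-MP. Its log2 difference to vehicle was -0.79 (2630 against 5124 reads, read ratio interval -0.88 to -0.74). HSP90B1 (GRP94) was at 25.9, 23.2, 25.6 and 16.9 FPKM (-0.59). The disulfide isomerase PDIA4 was at 60.0, 54.9, 57.5 and 40.0 FPKM (-0.58). CALR, the soluble lectin of the calnexin cycle and the most abundant ER member, was at 224, 208, 212 and 171 FPKM (-0.39). In each of these the combined library was below the other 3.

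DNAJB9, DNAJC3, CANX and HSPA13 were higher with both agents than with vehicle. The median of all 12750 genes was 0.13, and DNAJC3, CANX and HSPA13 were close to it. For all genes from 1 to 10 FPKM the median was 0.22, above DNAJC3 and CANX and below DNAJB9. DNAJB9 (ERdj4), a repressor of the sensor IRE1, was at 5.86 FPKM in Blank, 4.96 in His, 6.14 in 6-MP and 8.64 in His+6-MP. Its log2 difference was 0.49 to vehicle (read ratio interval 0.30 to 0.82) and 0.69 to histidine. DNAJC3, an inhibitor of the kinase PERK, was at 8.81, 8.13, 9.32 and 10.2 FPKM (0.20), and its difference to 6-MP of 0.12 turned to -0.0093 under median-ratio scaling. CANX, the membrane lectin paired with CALR, was at 3.88, 3.58, 3.97 and 4.52 FPKM (0.18). HSPA5 was 9.35-fold the FPKM of DNAJB9 in Blank, 10.4-fold in His, 8.48-fold in 6-MP and 3.61-fold in His+6-MP.

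Of the remaining ER members, PDIA6 was at -0.55, PDIA3 at -0.26, DNAJB11 at -0.08 and HSPA13 at 0.16 relative to vehicle. HYOU1, the ER exchange factor GRP170, was at 2.85 FPKM in Blank, 3.09 in His, 1.66 in 6-MP and 2.76 in His+6-MP (315, 370, 197 and 275 reads). It was low with 6-MP alone, by a log2 difference of -0.53 and a log2 read ratio of -0.78 (interval -1.04 to -0.52). The combined library lay within the range of the other 3. HYOU1 was the only ER member to differ by 0.5 or more from vehicle in either single-agent library.

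Set beside the promoter sequences above, the 5 ER genes with an ER stress element had a median log2 difference of the combined library to vehicle of -0.55, from -0.79 for HSPA5 to 0.18 for CANX. The 6 matched ER genes without one had a median of 0.06. The groups also differed in abundance. Mean levels with the element were 204 FPKM for CALR, 65.8 for PDIA6, 47.4 for HSPA5, 22.9 for HSP90B1 and 3.99 for CANX. Without it they were 53.1 for PDIA4, 24.8 for HSPA13 and 2.59 to 9.13 for the other 4, and the part of abundance was not tested. For heat shock elements of 3 units there was no such division between genes with and without one. Among cytosolic genes the median was -0.41 over 5 genes that hold one and -0.42 over 15 that do not. With all compartments and the transcription factors pooled it was -0.45 over 6 genes and -0.38 over 32. HSPA8, with 2 such elements in its window, was at 0.09, and HSP90AB1, also with 2, was at -0.72. These grouped values describe few genes, 1 library per treatment, and carry no test.

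The 3 transcription factors followed different patterns. HSF1, the main heat shock factor, was at 1.83 FPKM in Blank, 0.63 in His, 1.86 in 6-MP and 1.72 in His+6-MP (139, 52, 151 and 118 reads). The histidine library alone was low, with a log2 difference of -0.79 to vehicle. The log2 read ratio, without the added 1, was -1.53 (interval -2.02 to -1.06). HSF2 was at 17.6, 17.4, 19.4 and 20.2 FPKM, and its difference of 0.06 between the combined library and 6-MP turned to -0.09 under median-ratio scaling. XBP1, the IRE1 target, was at 121, 124, 121 and 91.2 FPKM (-0.40 to vehicle). It was thus lower with both agents, as HSPA5 was, although FPKM do not separate its spliced from its unspliced form.

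Other genes of the same pathways, listed by function, had medians nearer to that of all 12750 genes, 0.13. Of 28 other ER stress genes tested, 8 were lower and 20 higher with both agents than with vehicle, at a median of 0.14, close to that of all genes. DDIT3, which encodes the stress factor CHOP, was at 3.10, 2.91, 3.04 and 7.47 FPKM (58, 59, 61 and 126 reads). It was the only gene of the 3 lists past a difference of 1, at 1.05, where 6.53% of all genes passed. CRELD2 followed at 0.56, and SDF2L1 and ERO1A were lowest, at -0.69 and -0.45. SDF2L1, a partner of HSPA5, was at 25.9 FPKM with vehicle and 15.6 with both.

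Of 30 other cytosolic cochaperones and heat shock factor targets, 16 were lower and 14 higher, at a median of -0.16. DNAJB2 was at 5.82, 5.94, 5.81 and 12.1 FPKM (0.94) and PFDN4 at 0.72. PFDN2 and PDCL3 were lowest, at -0.72 and -0.69. PFDN2 and PFDN4 are subunits of prefoldin, which passes clients to TRiC, and stood at opposite ends of the list. Of 20 other mitochondrial chaperones and proteases, 13 were lower and 7 higher, at a median of -0.18, from -0.87 for TIMM13 and -0.67 for DNAJC11 to 0.39 for HTRA2 and 0.46 for HSCB. HSCB serves HSPA9 in iron-sulfur cluster transfer.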

How the data were processed

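Total RNA of 4 cultures, 1 per treatment, was sequenced with a stranded mRNA kit. The authors deposited FPKM per gene, made on GRCh38. The submitters' processing notes name Trimmomatic, HISAT2, Cufflinks and HTSeq. Versions and whether counting used strand are not given in the sources used here. Of the 46 genes found, 24 share exonic bases with another gene in GENCODE 29, 9 of them on the same strand.

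Whole reads were recovered from the FPKM steps, which gave each library's total and a length per gene. That length exceeded 1.5 times the GENCODE 29 exonic length for HSP90B1, HSPA5, HSPD1, DNAJB1, DNAJB11 and CANX, so their levels relative to other genes may be understated. Differences were taken as log2(FPKM + 1), a gene being tested at a mean of at least 1 FPKM and called at 1 in size. With 1 library per treatment no p-value was computed. Counting intervals were tried on simulated reads that held counting error alone. That checks the calculation and cannot show how well the intervals cover differences between cultures. Scripts ran in Python 3.11.15 with numpy 2.4.6, pandas 2.3.3 and scipy 1.17.1.

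The genes and lists were chosen with earlier results of these data known. Named with full values were the transcription factors, genes past the threshold, and in each compartment the 3 highest, the 3 lowest and the most abundant gene. From each pathway list the 2 highest and 2 lowest were named. HSP90AA1, AHSA1, HSPA8, HSPA14 and HYOU1 were added after their values were seen. Alternatives were a pseudocount of 0.1, no filter, a mean of at least 5 FPKM, median-ratio and TPM scaling, other thresholds, and leaving out TRiC.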

Additional observations from a re-analysis of the deposited data

Results flagged for a closer look

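These 3 genes are singled out because a single agent and the same agent added to the other one went in opposite directions, with both counting intervals clear of 0. No share of all genes meeting this rule was computed. The intervals cover counting error only, and the single-agent ones of TRAP1 and CCT8 began close to 0. The difference between the 2 effects was not tested across treatments, since each has 1 library. TRAP1 was slightly higher with histidine alone than with vehicle, at a log2 read ratio of 0.10 (interval 0.013 to 0.19), and lower with histidine added to 6-MP than with 6-MP, at -1.27 (interval -1.39 to -1.15). On the log2(FPKM + 1) scale the 2 effects of histidine differed by -1.29. For HSPA13 histidine gave -0.15 alone (interval -0.26 to -0.048) and 0.13 with 6-MP (interval 0.026 to 0.23), a difference of 0.27. For CCT8 6-MP gave 0.07 alone (interval 0.015 to 0.12) and -0.12 with histidine (interval -0.18 to -0.067), a difference of -0.19. Median-ratio scaling turned the HSPA13 value of histidine added to 6-MP to -0.02 on the log2(FPKM + 1) scale. TRAP1 and CCT8 kept both directions under median-ratio and TPM scaling.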

How the results depend on the processing

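No paired analysis was possible because a single library was made per condition, and leaving out a replicate did not apply. Of 103 alternative values, 67 moved by less than their margin, 36 moved further and 0 reversed. The alternative without HSPA1A and HSPA1B was not run, since these genes were not analysed here.

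Genes past the threshold numbered 0 for histidine. They became 1 with a pseudocount of 0.1 (3.05% of all genes), with TPM scaling (6.46%) and at a threshold of 0.5 (4.86%), where it was HSF1. For 6-MP they numbered 0, but 1 at a threshold of 0.5 (4.72% of all genes), where it was HYOU1, which was lower. TPM scaling also gave 1 for 6-MP (6.47% of all genes), a higher gene among 45 tested. It was BAG3, whose mean passes the filter under that scaling. For the combination against vehicle, 6-MP and histidine and for additivity they numbered 2 each. At a threshold of 0.5 these became 19, 20, 16 and 17 (27.1%, 26.2%, 25.4% and 27.3% of all genes), and at 1.5 they became 0 each (2.09%, 1.93%, 1.76% and 2.31%). TPM scaling gave 4 against 6-MP, 4 against histidine and 4 for additivity (16.2%, 15.7% and 18.6% of all genes), and a pseudocount of 0.1 gave 4 for additivity (11.8%).

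Median-ratio scaling moved the median of all genes against vehicle from 0.13 to -0.00010. It moved the medians against vehicle, 6-MP and histidine to -0.63, -0.62 and -0.54 for cytosolic genes and to -0.63, -0.65 and -0.52 for mitochondrial genes. ER medians became -0.31 against vehicle and -0.27 against 6-MP. Of 44 genes, 36 were then lower than with vehicle and 8 higher. Without the TRiC subunits the cytosolic medians were -0.37, -0.36 and -0.30. TPM scaling gave -0.39 for cytosolic genes against vehicle, and no filter gave -0.40 against 6-MP. At a mean of at least 5 FPKM the medians against vehicle and 6-MP were -0.43 and -0.44 for mitochondrial and -0.39 and -0.30 for ER genes, and the ER median exceeded the cytosolic one by 0.089 and the mitochondrial one by 0.041. The comparison with genes of like abundance was chosen after seeing the data.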
